A study of Mus musculus with 3 samples.

Results

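The genes described here are the nuclear genes for mitochondrial ribosomal proteins of the mouse, taken as every gene on the array whose name in the deposited annotation is Mrpl or Mrps followed by a number, without pseudogenes. They are 75 of the 24171 genes on the array and are measured by 116 of its 44170 transcripts. By the known structure of the mammalian mitoribosome, 48 encode proteins of the large subunit (Mrps30 and Mrps18a are among them, against their names) and 26 proteins of the small subunit. The place of the product of Mrps36, which is also known as a component of the 2-oxoglutarate dehydrogenase complex, is not settled. The arrays profiled 3 cell populations sorted from spleens of C57/BL6 mice, wild type and 8 weeks old: natural killer B (NKB) cells, which the labels treat as a population of their own, natural killer (NK) cells and B cells. No treatment or engineered allele is named for any of them. There is 1 array for each population and no replicate, so the values below come without a test or an error, and their precision is limited by how few arrays there are.

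Mitochondria keep a small genome of their own, and the few proteins it encodes, all core parts of the oxidative phosphorylation complexes, are translated inside the organelle on a dedicated ribosome. Its RNA comes from the mitochondrial genome, while all of its proteins are encoded in the nucleus, made in the cytosol and imported. Some of these proteins have a relative in the bacterial ribosome and others are found in mitochondria only; T lymphocytes are known to build up this machinery when they are activated and grow.

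The intensities are normalized values on a linear scale, 1 per transcript and array, and transcripts of a gene were averaged on the log2 scale. Odorant receptors are taken not to be expressed in spleen cells, and the 95th percentile of 924 such genes (olfactory and vomeronasal receptors) was used as the detection level of an array. It was 135 for NKB, 137 for NK and 149 for B. A gene counts as measured in a comparison where at least 1 of its 2 arrays was above its level, a value under the level was set to the level, and a gene is called at a 2-fold difference. Where the lower value was under its level, the fold is a bound and is written as "at least". Between the same arrays, with values as deposited, 20.9% of the receptor genes differed 2-fold or more for NKB against B, 21.0% for NKB against NK and 14.0% for NK against B, so a single 2-fold difference between dim values is common. In a bulk measurement fewer cells of a type and less RNA per cell cannot be told apart.

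The labels were set against marker genes. All 12 B cell markers were above the level on NKB, against 1 of 12 on NK and 12 of 12 on B. Of 11 NK cell markers, 8 were above the level on NKB, against 11 on NK and 1 on B. Il2rb, which encodes an interleukin receptor chain that NK cells need, had 151 on the NKB array, against 5119 on NK and 46.0 on B. Markers of other cells also differed between the arrays. All 10 macrophage markers were above the level on NKB and on NK and 2 of 10 on B. Their median intensity was 659 on NKB, 813 on NK and 100 on B. NKB was the highest array for 7 of the 10 and NK for 3. The summed intensities, which bright genes dominate, were 12813 on NKB, 8748 on NK and 1428 on B. Apoe alone had 4986 on NKB, 674 on NK and 592 on B. Of 13 genes of dividing cells 6 were above the level on NKB, 4 on NK and 4 on B. The proliferation gene Mki67 had 993 on NKB, 148 on NK and 129 on B, but the list did not move together. With values as deposited, 2 of the 13 were 2-fold or more higher in NKB than in B and 3 lower. Against NK, 4 were higher and 2 lower. Of all genes 13.2% were higher and 13% lower against B, and 15.2% and 14.9% against NK. Of 7 erythroid markers 3 were above the level on NKB, 4 on NK and 3 on B. Their median intensity was 69.3 on NKB, 141 on NK and 91.9 on B. The summed intensities, dominated by globin genes, were 9446 on NKB, 5963 on NK and 1318 on B. Hbb-b1, a beta globin gene, had 5583 on NKB, 2083 on NK and 252 on B, 22.2-fold higher in NKB than in B. The alpha globin gene Hba-a1 had 3468 on NKB, 3247 on NK and 597 on B, 5.80-fold higher in NKB than in B. Of 7 T cell markers 2 were above it on NKB, 2 on NK and 1 on B. The part of these cells and of cell division in the differences below was not tested.

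Transcription of mitoribosome genes is known to depend on factors that bind the NRF-1, ETS and YY1 motifs in their promoters. A window of 300 bases, 250 before and 50 after the annotated start (RefSeq, GRCm38.p6), was at hand for 66 of the 75 genes, in 72 windows. The windows below belong to members whose array differences are described further on: Mrpl39, Mrpl51, Mrpl21 and Mrpl17, which were higher on NKB than on both other arrays, Mrpl37, which was lower there than on both, and Mrps11, which was high on the NK array. They were picked after their values and motifs had been seen. Their positions are chr16:84735195-84735494 on the minus strand, chr6:125191950-125192249 and chr19:3282792-3283091 on the plus strand, chr7:105811038-105811337 and chr4:107066817-107067116 on the minus strand, and chr7:78782881-78783180 on the plus strand. Each is printed 5′ to 3′ along the gene, and capitals mark matches on either strand to GCATGCGC (NRF-1), CCGGAAG (ETS) or ATGGCGGC (YY1).
Mrpl39: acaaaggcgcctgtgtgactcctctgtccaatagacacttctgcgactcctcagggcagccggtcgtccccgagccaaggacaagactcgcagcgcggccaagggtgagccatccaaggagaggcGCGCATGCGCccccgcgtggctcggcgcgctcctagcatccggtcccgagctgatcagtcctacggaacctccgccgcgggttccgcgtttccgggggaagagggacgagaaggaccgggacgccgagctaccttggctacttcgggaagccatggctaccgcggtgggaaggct
Mrpl51: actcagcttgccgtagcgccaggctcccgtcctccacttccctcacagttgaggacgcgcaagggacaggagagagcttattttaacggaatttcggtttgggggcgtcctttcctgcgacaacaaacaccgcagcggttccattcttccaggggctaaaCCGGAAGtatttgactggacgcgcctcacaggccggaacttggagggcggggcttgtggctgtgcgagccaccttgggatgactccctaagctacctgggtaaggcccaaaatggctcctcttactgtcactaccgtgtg
Mrpl21: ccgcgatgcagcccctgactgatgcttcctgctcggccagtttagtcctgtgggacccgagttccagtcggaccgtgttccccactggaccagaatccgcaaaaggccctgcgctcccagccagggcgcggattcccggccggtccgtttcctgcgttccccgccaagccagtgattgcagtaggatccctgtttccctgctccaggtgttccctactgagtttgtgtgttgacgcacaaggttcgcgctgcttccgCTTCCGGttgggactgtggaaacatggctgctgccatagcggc
Mrpl17: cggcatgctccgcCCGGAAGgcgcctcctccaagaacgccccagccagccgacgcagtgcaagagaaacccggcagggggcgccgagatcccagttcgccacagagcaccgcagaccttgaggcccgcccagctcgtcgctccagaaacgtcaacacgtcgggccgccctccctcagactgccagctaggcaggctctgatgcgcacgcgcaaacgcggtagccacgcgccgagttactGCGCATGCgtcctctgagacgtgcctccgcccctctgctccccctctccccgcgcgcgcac
Mrpl37: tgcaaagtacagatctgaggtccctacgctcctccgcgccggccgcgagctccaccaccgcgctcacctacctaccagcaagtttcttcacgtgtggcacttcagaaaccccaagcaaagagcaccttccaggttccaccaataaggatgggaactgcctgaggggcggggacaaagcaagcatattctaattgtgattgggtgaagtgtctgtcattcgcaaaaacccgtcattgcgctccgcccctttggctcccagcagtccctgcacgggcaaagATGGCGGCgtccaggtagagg
Mrps11: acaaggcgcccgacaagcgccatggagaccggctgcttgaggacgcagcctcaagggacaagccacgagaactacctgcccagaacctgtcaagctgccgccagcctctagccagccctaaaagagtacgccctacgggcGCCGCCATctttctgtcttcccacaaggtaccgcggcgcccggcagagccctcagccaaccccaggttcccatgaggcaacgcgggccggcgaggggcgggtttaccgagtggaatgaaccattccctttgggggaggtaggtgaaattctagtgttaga
In Mrpl39 the capitals are a pair of overlapping NRF-1 matches at positions -125 and -123, with 0 the first base of the annotated transcript. Mrpl51 has an ETS match at -90 and Mrpl21 one at 7, and Mrpl17 has an ETS match at -237 and an NRF-1 match at -11. In Mrpl37 and Mrps11 the match is to YY1, at 29 and at -110. A match is a description of the letters and not evidence that a factor binds there.

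Over the 72 windows of members the ETS motif was found in 33.3%, against 12.05% of the windows of all genes on the array and 8.86% of all promoter windows. YY1 matched in 16.7%, against 3.15% and 2.24%, and NRF-1 in 11.1%, against 3.71% and 2.71%. At least 1 of these 3 motifs was present in 34 member windows (47.2%), against 17.3% of windows of array genes and 12.7% of all windows. Most YY1 matches lay just inside the transcript, 11 of the 12 at or past the start, where the letters ATGGCGGC can also hold a start codon. Shares were closer for general promoter elements: GGGCGG (SP factors) was found in 51.4% of member windows, against 47.9% for array genes and 35.7% for all, and CCAAT in 40.3%, against 38.2% and 37.4%. TATAAA was found in 6.94%, against 11.5% and 13.6%. Member windows held a median of 58.5% G or C and 21.5 CpG, against 57.0% and 14 for genes on the array, and how far base composition carries the motif shares was not tested. Of the 24 members with an ETS match 4 were called higher in NKB than in B and 0 lower, and of the 42 without one 6 were called higher and 2 lower, so calls fell on both sides of this split.

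**Figure D1:**
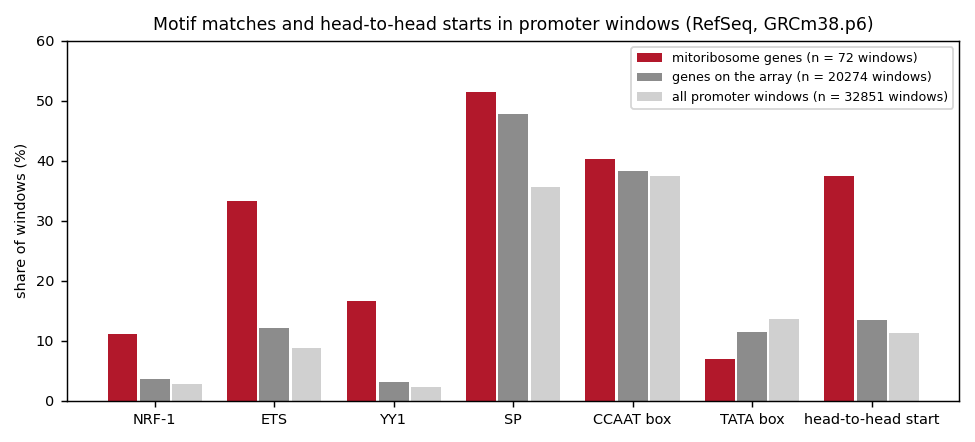
Share of promoter windows, in percent, that hold each motif on either strand, and share whose start lies within 1000 bases of a start on the opposite strand. Red bars are the 72 member windows, dark grey bars the windows of all genes on the array and light grey bars all windows; the red bar is the tallest for ETS (33.3%), YY1 (16.7%), NRF-1 (11.1%) and head-to-head starts (37.5%) and the shortest for the TATA box (6.94%).

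Many members also share their promoter region with a gene running the other way. In 27 of 72 windows (37.5%, from 25 genes) the start lay within 1000 bases of a neighbour's start on the opposite strand, against 13.5% of windows of array genes and 11.4% of all windows. The closest pair of members is Mrps11 and Mrpl46, whose starts are 42 bases apart. Other pairs join a member to a gene of mitochondrial metabolism: Mrpl43 lies 116 bases from Twnk, the helicase of mitochondrial DNA, Mrps12 147 bases from Sars2, the mitochondrial seryl-tRNA synthetase, and Mrpl47 308 bases from Ndufb5, a subunit of complex I. The array values of such partners could differ or run alike. Mrps11 had 1078 on NK and 267 on B, while Mrpl46, with 85.7 on NK and 50.7 on B, was under the detection level on all 3 arrays. Mrpl21 had 820.3 on NKB, 118 on NK and 272 on B, and its neighbour Ighmbp2, 32 bases away, had 89.8 on NKB, 135 on NK and 67.5 on B. By contrast, Mrpl27 had 230.4 on NKB, 77.6 on NK and 95.1 on B, and Eme1, which starts 48 bases away, had 402 on NKB, 77.5 on NK and 85.0 on B, so that both were above the level on NKB alone.

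Of the 75 members, 41 (54.7%) were above the detection level on NKB, 23 (30.7%) on NK and 31 (41.3%) on B, against 24.96%, 25.1% and 23.4% of all genes. In all, 52 members were above the level on at least 1 array and 13 on all 3: Mrpl3, Mrpl4, Mrpl9, Mrpl10, Mrpl12, Mrpl16, Mrpl18, Mrpl24, Mrpl39, Mrpl51, Mrps7, Mrps11 and Mrps24. The other 23 were under the level on every array and give no difference: Mrpl15, Mrpl20, Mrpl32, Mrpl33, Mrpl38, Mrpl43, Mrpl44, Mrpl46, Mrpl47, Mrpl48, Mrpl50, Mrpl52, Mrpl55, Mrps5, Mrps6, Mrps9, Mrps10, Mrps15, Mrps17, Mrps18a, Mrps28, Mrps31 and Mrps34. Being under the level bounds a signal on this array and does not show that a gene was silent. A probe's brightness also depends on its sequence, so intensities are compared here within a gene only.

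**Figure D2:**
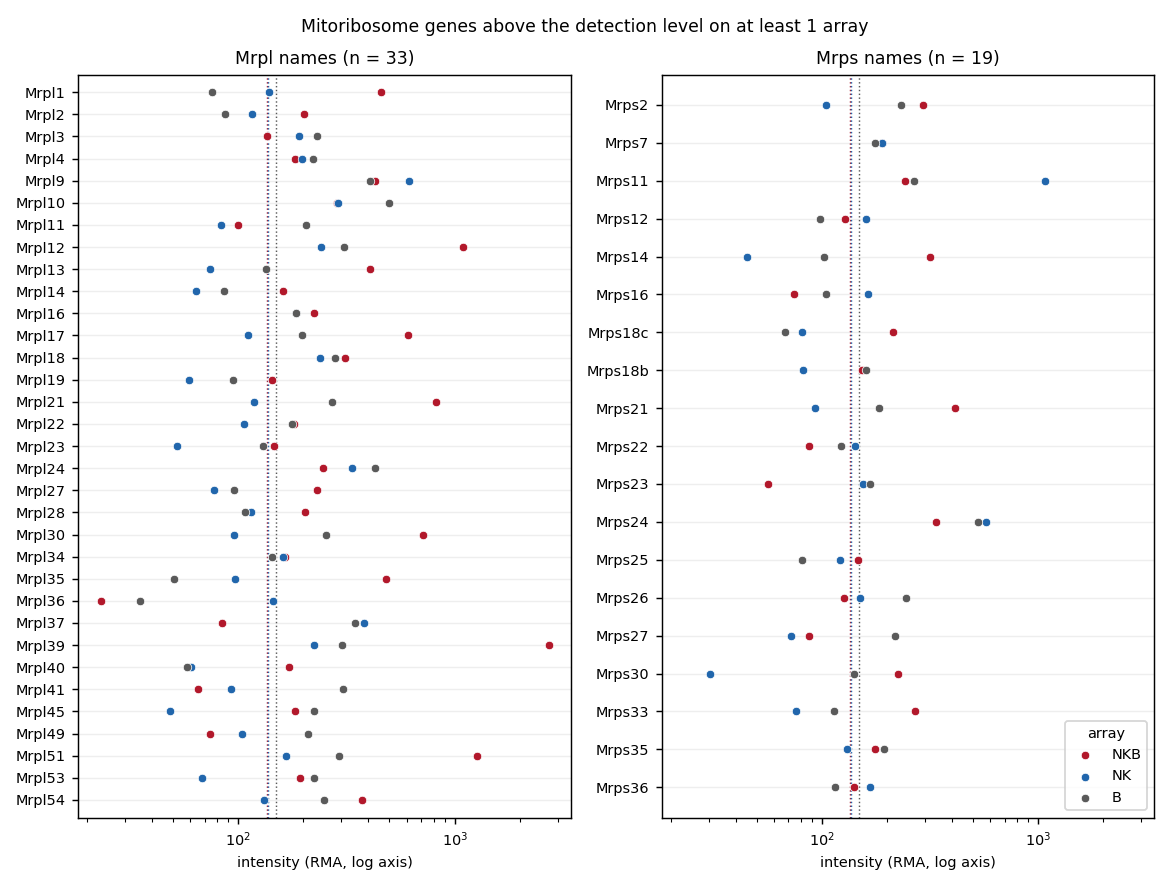
Intensity (log axis) of each of the 52 mitoribosome genes above the detection level on at least 1 array, 1 point per array, with genes of Mrpl names on the left and of Mrps names on the right. Dotted lines are the detection levels (NKB 135, NK 137, B 149); the red NKB points of Mrpl39 (2719), Mrpl51 (1266) and Mrpl12 (1089.8) stand far to the right of their own NK and B points, and the blue NK point of Mrps11 (1078) does so in its row.

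With the intensities used as deposited, so that all 75 members enter, the highest value was on NKB for 36 members (48.0%), NK for 17 and B for 22. Among all genes the NKB array was highest for 38.4%. The NK array was the lowest for 33 members (44.0%), against 34.0% of all genes, NKB for 24 and B for 18. On this scale 16 members differed 2-fold or more upwards and 9 downwards between NKB and B, where 13.2% of all genes were higher and 13% lower. For NKB against NK 24 were higher and 7 lower, where 15.2% of all genes were higher and 14.9% lower. The median log2 difference of the members was 0.11 for NKB against B (all genes 0.0097) and 0.28 for NKB against NK (all genes 0.018). These comparisons share the NKB array and are not independent of each other.

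**Figure D3:**
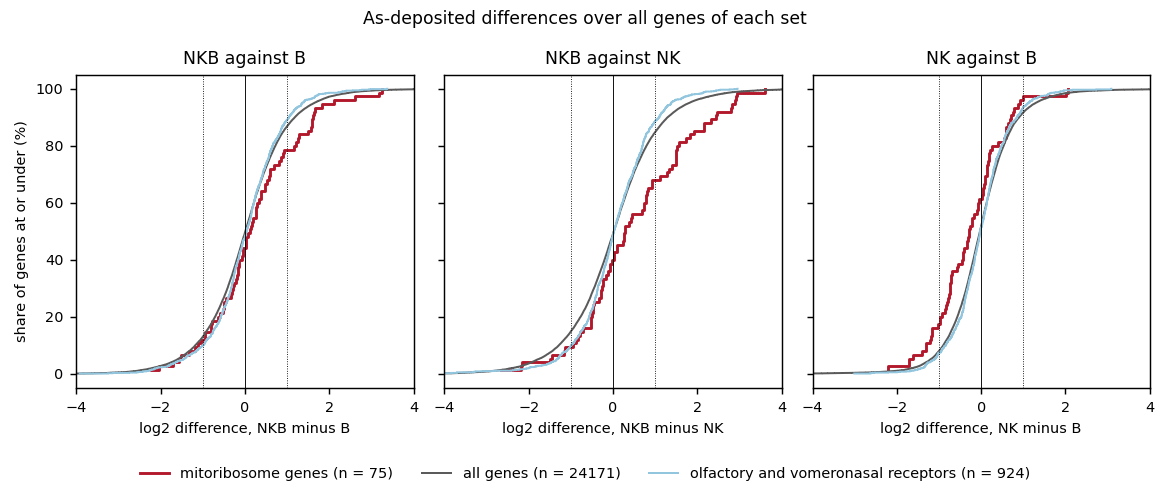
Cumulative share of genes, in percent, at or under each log2 difference, with intensities as deposited, for NKB against B, NKB against NK and NK against B. The red line (75 mitoribosome genes) runs to the right of the grey line of all genes for differences above 0 in the NKB panels, most in NKB against NK (median 0.28, all genes 0.018), and to the left over most of NK against B (median -0.28, all genes -0.028); the blue line is the 924 receptor genes.

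For NKB against B with the detection level, 48 members were measured, 11 were called higher and 2 lower. Of all genes measured in this comparison 14.4% were called higher and 15% lower, so the members' share of higher calls (22.9%) lay above that background and their share of lower calls (4.17%) below it. For NKB against NK, 48 were again measured, and 13 were called higher and 2 lower, against backgrounds of 17.5% and 15%. A member dim on 1 array counts as measured only if the other is above its level, so these counts are a description and are read beside those over all 75. On the same arrays 9 of 10 macrophage markers were called higher in NKB than in B, and against NK 3 were called higher and 2 lower. Mki67 and Top2a were the 2 of 13 proliferation genes called higher, and they were so in both comparisons. Only 6 of the 13 were measured against B and 7 against NK. Of the 7 erythroid markers 2 were called higher against B and 1 against NK. The part of these lists in the members' values was not tested. Of the 11 members called higher against B, 9 rest on 1 transcript of 3 probes, and 4 are bounds; of the 13 against NK, 10 rest on 1 transcript and 9 are bounds. With the level at the 99th percentile of the receptor genes, 20 members were measured in each comparison. Against B, 3 were called higher and 0 lower, where 11.7% of all genes were higher and 17.9% lower, and against NK 4 higher and 1 lower, where 14.3% of all genes were higher and 17.5% lower. With genes of 2 or more transcripts alone, 2 of 16 members were called higher against B and 3 of 17 against NK, where 11.9% and 16.1% of all genes were higher. The excess of higher calls over all genes was therefore not seen in this subset, whose median log2 difference was -0.035 against B (all genes -0.036) and 0.029 against NK (all genes 0.060).

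**Figure D4:**
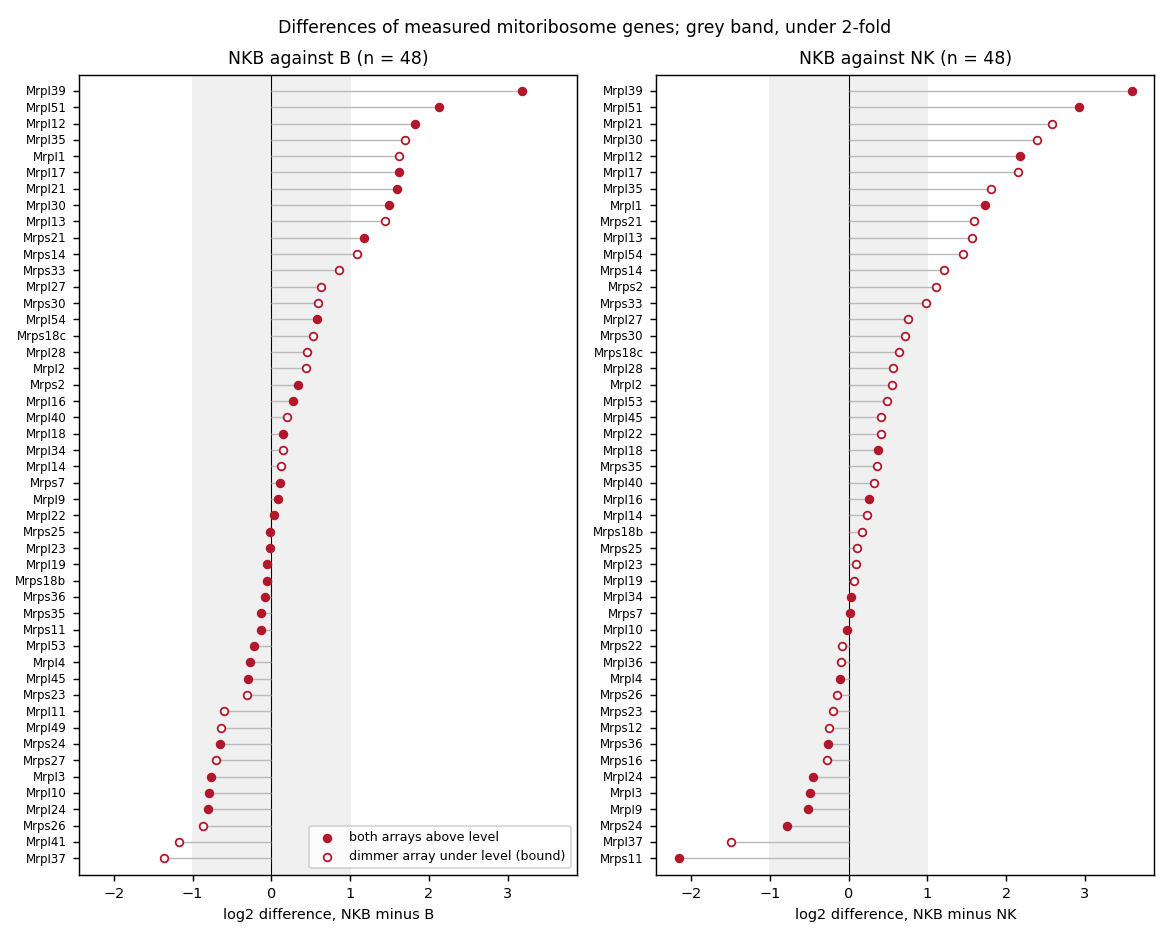
Log2 differences of the 48 measured members for NKB minus B (left) and of the 48 for NKB minus NK (right), 1 point per gene, with open points for bounds (lower value under its level). The grey band holds differences under 2-fold; 11 points lie above it and 2 below it on the left, and 13 above and 2 below on the right, with Mrpl39 at the top of both (3.18 and 3.59).

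The largest differences belonged to genes of the large subunit. Mrpl39, which encodes a mitochondria-specific protein of the large subunit related to threonyl-tRNA synthetases, had 2719 on NKB, 225 on NK and 300.2 on B. NKB stood above both, by 12.1-fold over NK and 9.06-fold over B, with all 3 arrays above their levels. Its single transcript lies at chr16:84718525-84735426 (MM9, as in the deposited annotation). Mrpl51, another protein found in mitochondria only, had 1266 on NKB, 166 on NK and 291 on B. It was 7.62-fold higher than on NK and 4.35-fold higher than on B, and both of its transcripts had this direction: 1759 and 911 on NKB, 227 and 122 on NK, and 291 and 290.2 on B.

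The stalk of the large subunit, which recruits translation factors, has 5 members here. Mrpl12, the flexible stalk protein that in human cells has also been reported to bind the mitochondrial RNA polymerase, had 1089.8 on NKB, 242 on NK and 308 on B. It was 4.50-fold higher than on NK and 3.54-fold higher than on B. None of the other 4 stalk genes was called against B, where 14.4% of all measured genes were called higher and 15% lower. Mrpl10, which anchors Mrpl12 to the ribosome, had 287 on NKB, 291 on NK and 497 on B, and Mrpl11, at the base of the stalk, had 99.7 on NKB, 83.5 on NK and 205 on B. Both were highest on B. Mrpl10 was 1.73-fold lower in NKB than in B, and Mrpl11, under its level on NKB, was at least 1.52-fold lower there (log2 difference as deposited -1.04). Mrpl53 had 193 on NKB, 68.2 on NK and 224 on B. Mrpl54 had 374 on NKB, 132 on NK and 250.3 on B, with NKB at least 2.73-fold above NK. Thus 4 of the 5 stalk genes were lowest on the NK array, and the fifth, Mrpl10, was lowest on NKB by a log2 difference of only -0.02.

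Around the exit of the peptide tunnel, where new chains meet the inner membrane, lie 8 members, Mrpl39 among them. Mrpl17 had 608 on NKB, 111 on NK and 197 on B, at least 4.43-fold higher than on NK and 3.08-fold higher than on B. Mrpl45, whose product ties the ribosome to the inner membrane, had 182 on NKB, 48.4 on NK and 224 on B. Its NK value was far under the level, and NKB and B differed by -0.30 on the log2 scale. Mrpl22 had 182 on NKB, 106 on NK and 178 on B, and Mrpl23 had 147 on NKB, 52.4 on NK and 129.8 on B. Both showed this order of a low NK value and near-equal NKB and B values. Mrpl24 went the other way, with 245 on NKB, 337 on NK and 427 on B. Mrpl44 (44.8 on NKB, 101 on NK, 97.5 on B) and Mrpl47 were under the level on all arrays.

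None of the 4 members next to the catalytic centre was called in any of the 3 comparisons. Mrpl16 had 223 on NKB, 186 on NK and 184 on B, and Mrpl4 had 184 on NKB, 198 on NK and 222 on B. Mrpl2 had 202 on NKB, 115 on NK and 87.1 on B, and only its NKB value was above the level, so NKB was at least 1.35-fold higher than B (log2 difference as deposited 1.21). Mrpl3, the fourth, has transcripts that ran in opposite directions and is described with those genes. In the central protuberance, the crown of the large subunit where it touches the small one, 3 of 6 members were under the level on all arrays. Mrpl18 had 311 on NKB, 239.9 on NK and 279.9 on B, while Mrpl40, with 172 on NKB, 60.3 on NK and 57.7 on B, was above the level on NKB alone, as Mrpl27 was.

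A further 5 large-subunit genes with bacterial relatives were called higher in NKB against both other arrays. Mrpl21 had 820.3 on NKB, 118 on NK and 272 on B, at least 5.98-fold higher than on NK and 3.02-fold higher than on B. For Mrpl30 the values were 718 on NKB, 95.4 on NK and 254 on B, at least 5.23-fold higher than on NK and 2.83-fold higher than on B. Mrpl35 had 481 on NKB, 96.3 on NK and 50.7 on B, with NKB alone above the level. Mrpl1, whose bacterial relative forms the mobile stalk at the tRNA exit site, had 459 on NKB, 138 on NK and 75.4 on B, 3.33-fold higher than on NK and at least 3.08-fold higher than on B. Mrpl13 had 406 on NKB, 73.9 on NK and 134 on B, with NKB the highest array on both transcripts (544 and 304 on NKB, against 65.7 and 83.1 on NK and 100.5 and 179 on B). Its call against B was lost when the brightest transcript stood for the gene (log2 0.76).

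Lower values in NKB were found for a few large-subunit genes that exist in mitochondria only. Mrpl37 had 84.1 on NKB, 380.1 on NK and 348 on B. The NKB value was under its level, so the gene was at least 2.81-fold lower than on NK and at least 2.57-fold lower than on B. Mrpl41, which in human cells has been linked to growth arrest and apoptosis, had 65.0 on NKB, 92.6 on NK and 305 on B, and was above the level on B alone. It was at least 2.26-fold lower in NKB than in B and at least 2.23-fold lower in NK than in B. Among the other large-subunit members, Mrpl9 was highest on NK (430.4 on NKB, 615 on NK and 406 on B), and Mrpl36 was above the level on NK alone (23.2 on NKB, 145 on NK and 35.0 on B). Mrps30, a large-subunit protein in spite of its name, had 225 on NKB, 30.4 on NK and 141 on B.

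Of the 26 small-subunit members, 2 were called higher and 0 lower in NKB against B, and 3 higher and 1 lower against NK. For the 48 large-subunit members the counts were 9 higher and 2 lower against B, and 10 higher and 1 lower against NK. Measured were 14 small-subunit and 33 large-subunit members against B, and 16 and 31 against NK. Of these, 14.3% and 27.3% were higher against B (all genes 14.4%), and 18.8% and 32.3% against NK (all genes 17.5%). Lower were 0% and 6.06% against B, and 6.25% and 3.23% against NK (all genes 15% in both). The small-subunit shares of higher calls lay near those of all genes. As deposited against B, 4 of the 26 were 2-fold or more higher and 3 lower, and 12 of the 48 higher and 6 lower (all genes 13.2% and 13%). As deposited against NK, 6 of the 26 were higher and 4 lower, and 18 of the 48 higher and 3 lower (all genes 15.2% and 14.9%). The difference between the subunits was not tested. Mrps14, a protein of the head of the small subunit, had 318 on NKB, 45.3 on NK and 103 on B, and was above the level on NKB alone. Mrps21 had 413 on NKB, 93.3 on NK and 183 on B, at least 3.01-fold higher than on NK and 2.25-fold higher than on B. Mrps2 had 295 on NKB, 104 on NK and 233 on B, at least 2.15-fold higher than on NK, and both of its transcripts were lowest on NK. Of the 7 members assigned here to the head, which need not be all of its proteins, 3 were under the level on every array. Mrps33 had 271 on NKB, 76.0 on NK and 114 on B, and Mrps35 had 176 on NKB, 132 on NK and 194 on B.

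Mrps11 was the 1 member called higher in NK than in B. This gene, for a protein of the small-subunit platform with a bacterial relative, had 242 on NKB, 1078 on NK and 267 on B. The gene was 4.45-fold lower in NKB than in NK and 4.04-fold higher in NK than in B, while NKB and B differed by only -0.14 on the log2 scale. It rests on 1 transcript, at chr7:85928195-85937874 (MM9). Among the small-subunit genes with near-equal values was Mrps7, whose bacterial relative binds the ribosomal RNA early in assembly, with 191 on NKB, 189 on NK and 176 on B. Mrps24 had 336 on NKB, 576 on NK and 525 on B, and Mrps26 had 127 on NKB, 149.9 on NK and 246 on B, and neither reached 2-fold. Mrps12, at the decoding centre, had 128 on NKB, 161 on NK and 98.5 on B. Mrps16 had 74.1 on NKB, 164 on NK and 105 on B, and Mrps22 had 87.3 on NKB, 143 on NK and 123 on B. Mrps16 and Mrps22 are mutated in human combined oxidative phosphorylation deficiencies, and of Mrps12, Mrps16 and Mrps22 only the NK values were above the level. Mrps23 had 56.7 on NKB, 155 on NK and 167 on B, and Mrps34, under the level throughout, had 45.4 on NKB, 80.8 on NK and 50.4 on B. Mrps27 was above the level on B alone, with 87.5 on NKB, 72.0 on NK and 219 on B.

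Mitochondria hold 3 versions of the protein that bacteria have once as S18, so these paralogs can be set side by side. Mrps18c had 214 on NKB, 80.6 on NK and 67.4 on B, and only NKB was above the level. Mrps18b had 154 on NKB, 81.6 on NK and 160.4 on B. Mrps18a, whose product sits in the large subunit, had 49.8 on NKB, 92.1 on NK and 114 on B, under the level on each array.

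The members were also divided by descent. Of the 47 with a relative in the bacterial ribosome, NKB was the highest array for 29 (61.7%). Of the 27 known from mitochondria only, it was highest for 7 (25.9%) and B for 12 (44.4%). Among all genes NKB was highest for 38.4% and B for 30.3%. With intensities as deposited, the median log2 difference of NKB against B was 0.27 for those with a bacterial relative and -0.16 for those without. Against B, 9 members with a bacterial relative were called higher and 0 lower, while 2 without were called higher (Mrpl39 and Mrpl51) and 2 lower (Mrpl37 and Mrpl41). Of 31 and 17 measured, these are 29.0% and 11.8% higher and 0% and 11.8% lower, against 14.4% and 15% of all genes. The 0 depends on the detection level. As deposited, 12 of the 47 were 2-fold or more higher and 3 lower, and 4 of the 27 higher and 6 lower. Of all genes 13.2% were higher and 13% lower. Among those 3 was Mrps6, under the level on every array, with 38.5 on NKB, 109 on NK and 126 on B. Against NK, 10 with a bacterial relative were called higher and 1 lower, and 3 without were called higher and 1 lower. Of 33 and 15 measured, these are 30.3% and 20% higher and 3.03% and 6.67% lower, against 17.5% and 15% of all genes. As deposited against NK, 16 of the 47 were higher and 4 lower, and 8 of the 27 higher and 3 lower (all genes 15.2% and 14.9%). The medians against NK depended on the genes that entered: as deposited they were 0.72 with a bacterial relative and -0.18 without, and over the measured members 0.26 with and 0.36 without. The descent of Mrpl55 is unclear and it was left out of this split. With 1 array per population the difference between the 2 classes was not tested.

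For NK against B, 38 members were measured, 1 was called higher (Mrps11) and 1 lower (Mrpl41). Of all measured genes 7.37% were called higher and 9.84% lower. With intensities as deposited, 2 of 75 members were 2-fold or more higher in NK than in B and 13 lower, where 8.3% of all genes were higher and 8.04% lower, and the median was -0.28 (all genes -0.028). All 13 had an NK value under its level. Mrpl20, Mrpl23, Mrps14 and Mrps30 were under the level on B too and were not measured, and for the others the detection level gives a bound. Mrpl21, with 118 on NK and 272 on B, was at least 1.98-fold lower in NK (log2 difference as deposited -1.20). Mrpl30, with 95.4 on NK and 254 on B, was at least 1.85-fold lower (as deposited -1.41). Mrpl54, which is not among the 13, had 132 on NK and 250.3 on B and was at least 1.83-fold lower (as deposited -0.92). Mrpl51, above the level on both arrays with 166 on NK and 291 on B, differed by -0.81. On the other side, Mrpl9 had 615 on NK and 406 on B, both above the level (log2 0.60). Several members were above the level on NK but not on B, so that only a bound or no fold can be given. Among them, Mrpl36, with 145 on NK and 35.0 on B, differed by 2.05 as deposited, Mrps12 by 0.71, Mrps16 by 0.64 and Mrpl34 (162 on NK and 144 on B) by 0.17.

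Several members have more than 1 transcript on the array: 21 have 2 and 10 have 3. For these 31 genes the pooled standard deviation between transcripts of a gene was 1.02 (log2) for NKB against B, 1.01 for NKB against NK and 0.78 for NK against B. All transcripts of a gene had the same direction in 12 of the 31 genes for NKB against B, in 15 for NKB against NK and in 17 for NK against B (38.7%, 48.4% and 54.8%). Over all genes with several transcripts the same direction was found in 42.0% for NKB against B, 43.8% for NKB against NK and 43.9% for NK against B, with pooled standard deviations of 1.07, 1.13 and 0.78. Some genes had transcripts that differed by 2-fold or more in opposite directions. Mrpl3, whose human form is mutated in a cardiomyopathy, had an average of 136 on NKB, 191 on NK and 232 on B. Its transcripts read 369, 35.0 and 195 on NKB against 167, 238 and 314 on B, so 1 was 2.21-fold higher and another 6.79-fold lower. Mrps36 averaged 140.4 on NKB, 168 on NK and 115 on B, from transcripts of 293 and 67.2 on NKB against 54.2 and 244 on B. For NKB against NK this held for Mrps15 (364 and 36.3 on NKB, 131 and 111 on NK), and for NK against B for Mrpl33 (73.2, 49.9 and 92.1 on NK, 36.4, 139 and 48.9 on B). The values of these 4 genes averaged over transcripts hide such a split.

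**Figure D5:**
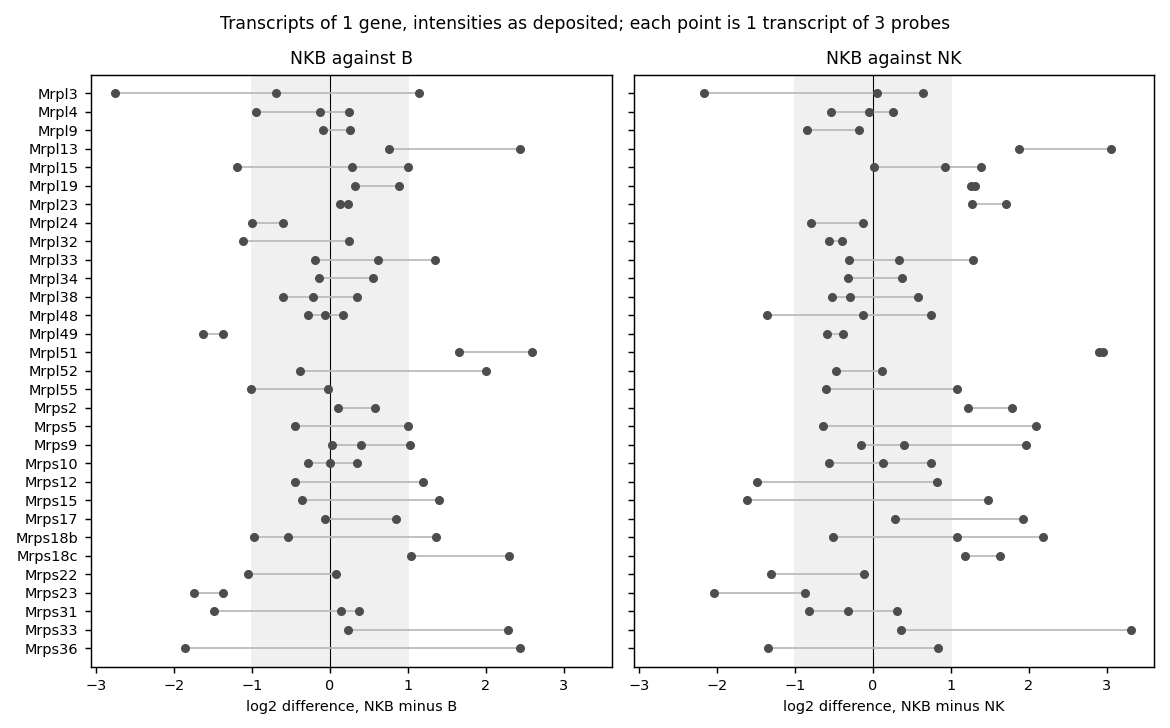
Log2 differences of single transcripts, with intensities as deposited, for the 31 members with 2 or 3 transcripts, for NKB minus B (left) and NKB minus NK (right); a grey line joins transcripts of 1 gene and the grey band holds differences under 2-fold. Both transcripts of Mrpl51 and of Mrpl13 lie above 0 in both panels, while those of Mrpl3 and Mrps36 lie on both sides of the band for NKB minus B.

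The authors' deposited table of transcripts higher in NKB than in B lists 19 member transcripts, and that of transcripts lower lists 8. All of their listed transcripts are at least 2-fold different and at 100 or more on at least 2 of the 3 arrays. Among the 14864 array transcripts that reach this intensity, the authors' deposited table holds 20.7% as higher and 27.9% as lower; of the 68 member transcripts that reach it, the shares are 27.9% and 11.8%. For NKB over NK the authors' deposited table lists 25 member transcripts as higher and 7 as lower, 36.8% and 10.3% of the 68, against 25.5% and 27.5% of all eligible transcripts. In the authors' deposited table Mrpl39 has a fold of 9.06 over B and of 12.1 over NK.

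The members were set beside 2 other groups of genes on the same arrays. Of 80 cytosolic ribosomal protein genes 74 were measured in each comparison. NKB against B called 13 higher and 12 lower (17.6% and 16.2% of those measured, all genes 14.4% and 15%). NKB against NK called 20 higher and 4 lower (27.0% and 5.41%, all genes 17.5% and 15%). NK against B called 0 higher and 15 lower (0% and 20.3%, all genes 7.37% and 9.84%). Their lowest array was NK for 53 of the 80 (66.3%), against 44.0% of the mitoribosome members and 34.0% of all genes. The other group was 79 nuclear genes for subunits of oxidative phosphorylation, which work beside the products of the mitoribosome. NKB against B measured 65 of them and called 21 higher and 5 lower (32.3% and 7.69%, all genes 14.4% and 15%). NKB against NK measured 67 and called 22 higher and 6 lower (32.8% and 8.96%, all genes 17.5% and 15%). In NK against B, 57 of these genes were measured, and 1 was called higher and 1 lower (1.75% each). Of the mitoribosome members 38 were measured, with 1 higher and 1 lower (2.63% each). Of all measured genes 7.37% were higher and 9.84% lower. With intensities as deposited, 3 of the 79 genes were 2-fold or more higher in NK than in B and 3 lower (median log2 difference -0.054). Of the 75 members 2 were higher and 13 lower (median -0.28). Of all genes 8.3% were higher and 8.04% lower. Differences between the groups were not tested.

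Other genes of mitochondrial translation were looked up from lists. Of 9 mitoribosome proteins with other names, 1 was called higher and 1 lower in NKB against B, 1 higher and 1 lower against NK, and 1 higher in NK against B. Mrpl42, whose name falls outside the rule in the deposited annotation, had 424 on NKB, 116 on NK and 180.5 on B, the order of most called members. Dap3, a GTP-binding protein of the small subunit, had 77.8 on NKB, 234 on NK and 378 on B, and Chchd1 had 111 on NKB, 422 on NK and 179.6 on B. Of 11 translation factors, the elongation factor gene Gfm1 was called higher in NKB than in NK (306 on NKB, 102 on NK, 249 on B). Mtfmt, which formylates the initiator methionyl-tRNA, was lower in NKB than in B (294 on NKB, 454 on NK, 649 on B).

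Of 22 genes on a list of mitochondrial aminoacyl-tRNA synthetases, which also holds Qrsl1, Gatb and Gatc for the glutamyl-tRNA amidotransferase, 6 were above the level on any array. Rars2, for arginine, had 769.8 on NKB, 122 on NK and 252 on B, and Yars2, for tyrosine, had 55.4 on NKB, 40.7 on NK and 279 on B. Of 24 assembly factors, Nsun4 alone was called (134 on NKB, 167 on NK, 288 on B). Of 12 factors of mitochondrial transcription and RNA stability, Mterf1a alone was called (342 on NKB, 70.7 on NK, 123 on B). In these 5 lists, then, calls ran in both directions and most genes were not called. Many could not be called, being under the level on every array. These were 3 of the 9 other names, 7 of 11 translation factors and 16 of 22 synthetase genes. The same held for 15 of 24 assembly factors and 3 of 12 transcription and RNA stability factors. For NKB against B, 5, 4, 6, 7 and 9 genes of the lists in this order were measured. Of all genes measured there 14.4% were called higher and 15% lower.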

How the data were processed

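Per the labels, the populations were sorted from spleen, total RNA was extracted with TRIZOL, cDNA was primed with oligo dT, and Cy3-labelled product was hybridised to NimbleGen arrays. The gate was not given in the sources used. The protocol text speaks of LT-HSCs for every sample, so titles and cell type fields were used to assign groups. The deposited values are linear intensities, 1 for each transcript on each array; per the submitters' processing notes they come from RMA, with no version stated. Per the file headers, array coordinates are on MM9, and 44155 of 44170 transcripts have 3 probes. The authors' deposited log2 ratios are plain ratios of 2 arrays, recomputed here from the intensities. The deposited series matrix repeats these intensities (largest difference 0).

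No further normalization was applied. Symbols were brought up to date through the RefSeq table (GRCm38.p6), and transcripts without a symbol (2284) were left out. The steps ran in Python 3.11.15 with numpy 2.4.6, pandas 2.3.3 and matplotlib 3.10.9. The calling step was tried on simulated arrays, with changes planted in bright genes only and less noise than the receptor genes show. That run says nothing about calls between dim values. Named in full are, per comparison, the top 8 and bottom 8 members by difference, all called members, those with opposite transcripts and 19 fixed members, with called genes of the other lists. Members and lists were chosen with earlier results of these data known. Subunit, descent and region of each member, the cytosolic ribosome and oxidative phosphorylation sets, motifs and printed promoters were chosen after the values had been seen, and the list of other names was then adjusted for renamed genes. Alternatives tried were the detection level, the normalization, the handling of transcripts and symbols, and the threshold.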

Additional observations from a re-analysis of the deposited data

How the results depend on the processing

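At a stricter level, the 99th percentile of the receptor genes, NKB against B had 3 members higher and 0 lower; NKB against NK had 4 and 1, with a median log2 difference of -0.040; NK against B had 1 and 0, with a median of 0.13. Under this setting 6 called differences changed sign, because a dim array's value is then its own level: against B Mrpl13 (-0.035), Mrps14 (-0.39) and Mrps21 (-0.011), and against NK Mrpl54 (-0.10), Mrps14 (-0.34) and Mrps2 (-0.44). With no level the counts were 16 and 9 for NKB against B, 24 and 7 for NKB against NK, and 2 and 13 for NK against B. With the level at the array median they were 16 and 6, 23 and 5, and 2 and 11. At 1.5-fold they were 14 and 10, 17 and 3, and 2 and 12. With genes of 2 or more transcripts alone, fewer members entered (16, 17 and 13 measured), and the counts were 2 and 0 (median -0.035), 3 and 0 (median 0.029), and 0 and 0 (median -0.17). Of all genes in that setting 11.9%, 16.1% and 4.91% were higher, with medians of -0.036, 0.060 and -0.12, so the members' excess of higher calls in NKB was not seen there. Shifting the arrays to equal medians moved the median of all genes by 0.19 in NK against B and by -0.10 in NKB against NK. In NK against B it left 1 member higher and 0 lower, with a median of -0.15, and 61.0% of all called genes were then higher, against 42.8%. The brightest transcript of each gene gave 1 higher and 2 lower there. A new quantile normalization, symbols as deposited and the series table kept every call of a member. No paired analysis was possible because each population is 1 array.

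Signal over background limits the values: 23 members were under the level on every array, and a single array per population gives no measure of the spread between animals or sorts.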

Other observations

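Of the pseudogenes that the name rule left out, Mrpl27-ps had 281 on NKB, 93.2 on NK and 145 on B, above the level on NKB alone. Its parent gene Mrpl27 had 230.4 on NKB, 77.6 on NK and 95.1 on B, also above the level on NKB alone. How far the probes of the pair read each other's transcripts was not tested.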
